A study of Homo sapiens with 5 samples.

Results

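The summits described here are those of the input DNA library of a chromatin immunoprecipitation sequencing (ChIP-seq) study of the human colorectal cancer line HCT116. Every summit of the input list was taken, 945 of the 209263 summits in the 5 deposited lists. The other lists came from cells transfected for 48 h with control siRNA or with ENO1-IT1 siRNA, which targets a long noncoding RNA of that name, and immunoprecipitated for acetylated lysine 27 of histone H3 (H3K27ac) or for the histone acetyltransferase KAT7. They held 29429 (control H3K27ac), 31839 (knockdown H3K27ac), 122439 (control KAT7) and 24611 (knockdown KAT7) summits. The input label names no antibody and does not say which siRNA the cells received. Each group was 1 library, so the differences between lists describe these libraries and no test against replicate error could be made.

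Input DNA is sheared chromatin sequenced without immunoprecipitation. On a complete reference, and with even shearing and recovery of DNA, it would cover the genome according to copy number. Input libraries are nevertheless known to pile up at a set of places: satellite repeats beside centromeres, telomere-like repeats at chromosome ends, ribosomal DNA and nuclear copies of mitochondrial DNA, where the reference holds fewer copies than the cell. Such places are commonly masked before ChIP-seq peaks are interpreted. H3K27ac marks active promoters and enhancers, and KAT7, also called HBO1, is a MYST-family acetyltransferase of histones H3 and H4, so the input list shows where a listed position may also be found without antibody.

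Input summits gathered beside the centromeres. On each of chromosomes 1 to 22 and X, the longest stretch without any immunoprecipitated summit stood in for the unassembled centromere, since no hg19 gap annotation was used here. The stretches ran from 3055464 bp on chromosome 12 to 21241923 bp on chromosome 1. On the 5 chromosomes 13, 14, 15, 21 and 22, which are acrocentric, the stretch ran from the first base. Of the 860 input summits on these 23 chromosomes, 508 (59.1%, exact 95% interval 55.7 to 62.4%) lay inside the stretch or within 1 Mb of its edge. The same share was 0.694% for control H3K27ac, 0.758% for knockdown H3K27ac, 0.944% for control KAT7 and 1.06% for knockdown KAT7.

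Because immunoprecipitated summits define the stretch, they cannot lie inside it, and that part of the contrast is fixed by the definition. Inside the stretch lay 301 of the 860 input summits (35.0%). Outside it but within 1 Mb of its edge lay 207, or 24.1% (21.2 to 27.1%). The corresponding shares of the immunoprecipitated lists were 0.694% for control H3K27ac, 0.755% for knockdown H3K27ac, 0.918% for control KAT7 and 1.03% for knockdown KAT7. The nearness of input summits to the stretch was therefore also seen where summits of every list could be placed.

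**Figure D1:**
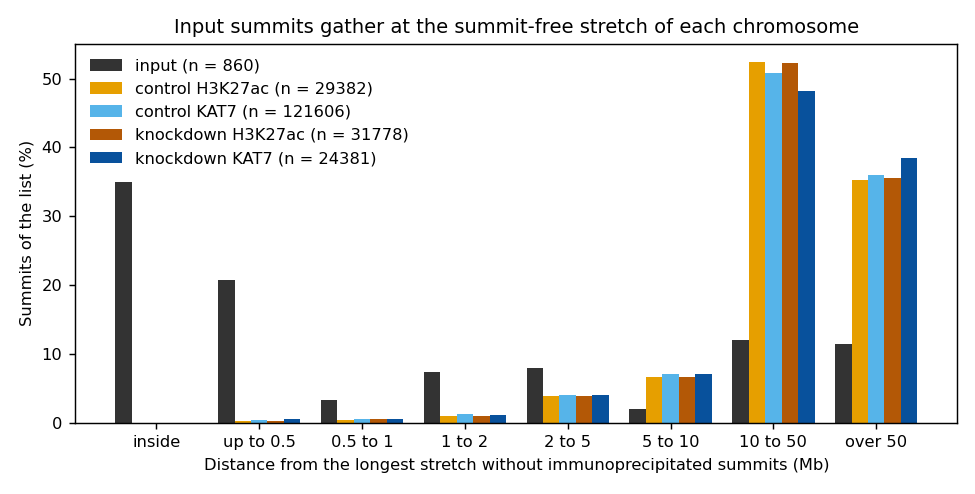
Share of each list's summits on chromosomes 1 to 22 and X (y axis, %) by distance in Mb from the longest stretch without immunoprecipitated summits (x axis), with 1 bar per list. Of the input summits, 35.0% lie inside the stretch and 20.8% up to 0.5 Mb outside it, and 0.231% of control H3K27ac summits lie in the latter range. Immunoprecipitated summits inside the stretch are near 0 by its definition.

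Nearly every chromosome took part when summits inside the stretch were counted. An input summit lay inside the stretch or within 1 Mb of it on 21 of the 23 chromosomes. Outside the stretch they were uneven, with the most on chromosomes 4 (53 at the left edge) and 10 (47 at the right edge). Of the 18 chromosomes whose stretch lay between summits, 4 had input summits within 1 Mb outside both of its edges, namely chromosomes 1, 7, 8 and 10. On chromosomes 3, 6, 15, 17, 18 and X every input summit near the stretch lay inside it, 41 of them on X. Chromosome 4 had 66 near its stretch, 53 of them outside its left edge and 13 inside, and chromosome 8 had 44, with 37 inside. Chromosomes 9 and 13 had none within 1 Mb. Of these, chromosome 13 held 3 input summits in all and chromosome 9 held 39. On chromosome 21 the stretch that was used ended at 9412426, and a further one from 11133590 to 14389629 was not counted.

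The spread over chromosomes did not follow the immunoprecipitated lists. Chromosomes 4, Y, 16, 2 and 10 held 88, 82, 76, 75 and 74 input summits, together 41.8% of the list. Chromosome Y held 8.68% of the input summits but 0.160% of the control H3K27ac and 0.935% of the knockdown KAT7 summits. Chromosome 19, which is gene-dense, held 29 input summits, of which 22 lay near its stretch. Chromosomes 13 and 15 held 3 and 4.

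The summits came in tight clusters. A run was a series of input summits with neighbours at most 10 kb apart, and a cluster was a run of at least 5 summits. There were 406 runs. Of these 274 were single summits, 94 held 2 to 4 summits, and 38 were clusters. The clusters held 433 of the 945 summits (45.8%, 42.6 to 49.1%) in 922 kb in all. They extended over 3.95 to 64.4 kb with a median of 19.4 kb, and neighbouring summits within them were a median of 1563 bp apart. Of the 38 clusters 27 lay near the stretch, 17 of them wholly inside it, 4 lay on chromosome Y and 7 elsewhere. Apart from a cluster on chromosome 2 that starts at 132997507, those elsewhere were 1.12 to 2.44 Mb from the stretch. None lay near a chromosome end.

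The 10 clusters with the most summits held 227 summits, 24.0% of the list. The fullest lay on chromosome 2 from 92269513 to 92325516, with 33 summits scoring 13.9 to 170. It crossed the left edge of the stretch at 92315404. Next came chromosome 16 from 46386993 to 46435411, with 32 summits scoring 8.53 to 60.1, all inside the stretch. Chromosome 4 followed with 31 summits from 49094068 to 49158514 and a highest score of 129. Chromosome 10 had 30 summits from 42356194 to 42418313, with a highest score of 91.0. Together these 4 clusters held 126 summits.

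Chromosome 8 had 2 of the 10 clusters, both inside its stretch. The cluster from 43793869 to 43838624 held 17 summits and reached a score of 105, and that from 46839087 to 46886241 held 19 and reached 73.2. By the definition of the stretch, neither could hold an immunoprecipitated summit. Chromosome 4 had a further cluster of 19 summits from 49280774 to 49333464, with scores of at most 29.1. On chromosome Y, 18 summits lay from 13448296 to 13489651 and 14 from 13832551 to 13869141. The last of the 10 lay away from a present centromere, with 14 summits on chromosome 2 from 132997507 to 133039080 and scores of 5.89 to 49.3. General knowledge of the map places the remnant of an ancestral centromere in this part of the long arm of chromosome 2. No hg19 repeat annotation was used here, so no summit was assigned to a satellite family.

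Scores of the input list ran from 5.24 to 230, with a median of 19.8 and quartiles of 13.3 and 36.5. The score is the authors' value for a summit, a -log10 p or q as MACS2 writes it, and serves here to rank summits within a list. Of the 945 summits 845 scored at least 10, 153 at least 50 and 45 at least 100. There were 900 distinct values, and the most frequent was shared by 4 summits. The median was 26.97 in clusters, 17.0 in runs of 2 to 4 summits and 14.2 for single summits. By place it was 23.1 near the stretch, 21.2 on chromosome Y, 16.8 elsewhere and 12.3 near a chromosome end. The ranges of all these groups overlapped widely.

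**Figure D2:**
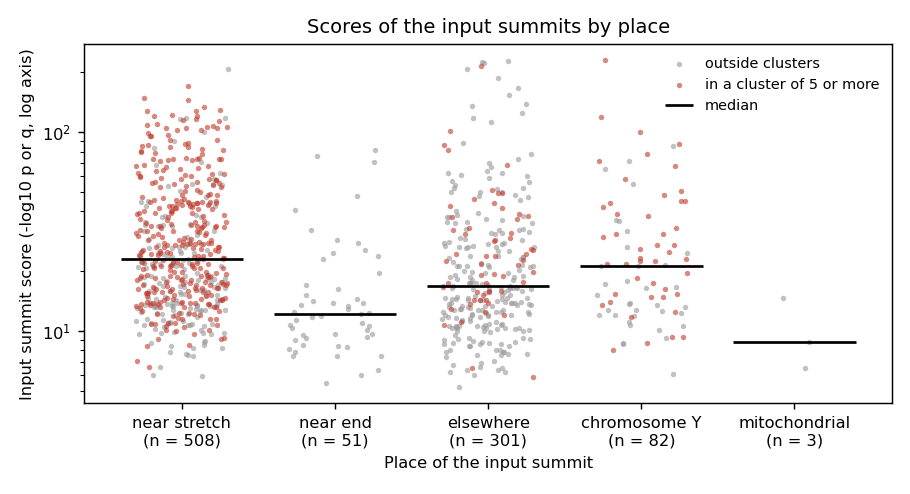
Score of each of the 945 input summits (y axis, -log10 p or q, log axis) by place (x axis), with red points for summits in a cluster of 5 or more, grey points for the others and a black line at the median. The medians are 23.1 near the stretch, 12.3 near a chromosome end, 16.8 elsewhere, 21.2 on chromosome Y and 8.84 on the mitochondrial genome, and the points of the first 4 places overlap.

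Of the 10 highest-scored summits, 2 lay in the 10 fullest clusters. The top summit lay on chromosome Y at 13842725, with a score of 230. The second lay on chromosome 21 at 10819622 with a score of 228. It was 1.41 Mb from the stretch counted there, and the further one that was not counted began at 11133590. Chromosome 9 gave the third to the sixth. At 66971233 (score 225), 69711091 (223), 66833858 (216) and 67320573 (209), they were 1.26 to 4.13 Mb outside the right edge of its 18290860 bp stretch. The remaining 4 were position 29829525 of chromosome 20 (score 208), position 33887711 of chromosome 16 (188), position 92291503 of chromosome 2 (170) and position 68265578 of chromosome 4 (167). The chromosome 4 summit was 15.6 Mb from the stretch, the farthest of the 9 that lie on the chromosomes with a counted stretch.

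None of these 10 had an H3K27ac or control KAT7 summit within 1000 bp, whereas 4 had a knockdown KAT7 summit. The latter were the chromosome Y summit and those on chromosome 9 at 66971233, 69711091 and 66833858, with knockdown KAT7 summits 20, 10, 25 and 5 bp away. The knockdown KAT7 scores there were 1.73, 1.60, 1.60 and 4.35. Their ranks in that list were 24465, 24466, 24466 and 20777 of 24611, so that at least 3 of the strongest input positions met knockdown KAT7 calls from the very end of that list.

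The mitochondrial genome held 3 input summits, at 2245 (score 8.84), 14007 (6.56) and 15586 (14.7). No immunoprecipitated list held any mitochondrial summit. On chromosome 1, a run of 4 summits lay at 565126, 566210, 567606 and 569380, with scores of 32.3, 47.9, 81.3 and 19.5. This part of the chromosome is generally known to hold a nuclear copy of a stretch of mitochondrial DNA, and the score at 567606 was above each of those on the mitochondrial genome. The nearest summit of any immunoprecipitated list was a control KAT7 summit 16867 bp from the first of the 4.

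Most input positions were absent from the immunoprecipitated lists. Of the 945 input summits, 820 (86.8%, 84.4 to 88.9%) had no summit of any list within 1000 bp. A knockdown KAT7 summit was that near for 98 (10.4%, 8.50 to 12.5%), a control H3K27ac summit for 44 (4.66%, 3.40 to 6.20%), a knockdown H3K27ac summit for 43 (4.55%, 3.31 to 6.08%) and a control KAT7 summit for 41 (4.34%, 3.13 to 5.84%). To read these shares against list length, the part of the chromosomes' span within 1000 bp of a summit was computed for each list. It was 1.66% for knockdown KAT7, 1.67% for control H3K27ac, 1.92% for knockdown H3K27ac and 8.16% for the long control KAT7 list. Input summits were thus near knockdown KAT7 and both H3K27ac lists more often than the span is, and near control KAT7 less often. The control KAT7 contrast rested on counting every summit of a run. With 1 input summit per run the share was 7.88% (5.45 to 10.9%), an interval that holds the 8.16%. The 945 also include 301 summits inside a stretch, which the span leaves out.

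The excess was concentrated at short distances. Within 50 bp, 4.02% of input summits had a knockdown KAT7 summit against 0.0865% of the span, and 2.01% had a control H3K27ac summit against 0.103%. For control KAT7 the shares within 50 bp were 1.06% of input summits and 0.431% of the span, and the order turned between 250 and 500 bp. Among the summits within 1000 bp, the median distance was 80.5 bp for knockdown KAT7, 72 bp for control H3K27ac, 84 bp for knockdown H3K27ac and 120 bp for control KAT7. Within 50 kb, 44.9% of input summits had a control KAT7 summit against 97.2% of the span. At that distance 18.0% had a control H3K27ac summit, where the span had 35.4%. The span leaves out every stretch of at least 1 Mb without an immunoprecipitated summit, so input summits inside them lower these shares by construction.

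**Figure D3:**
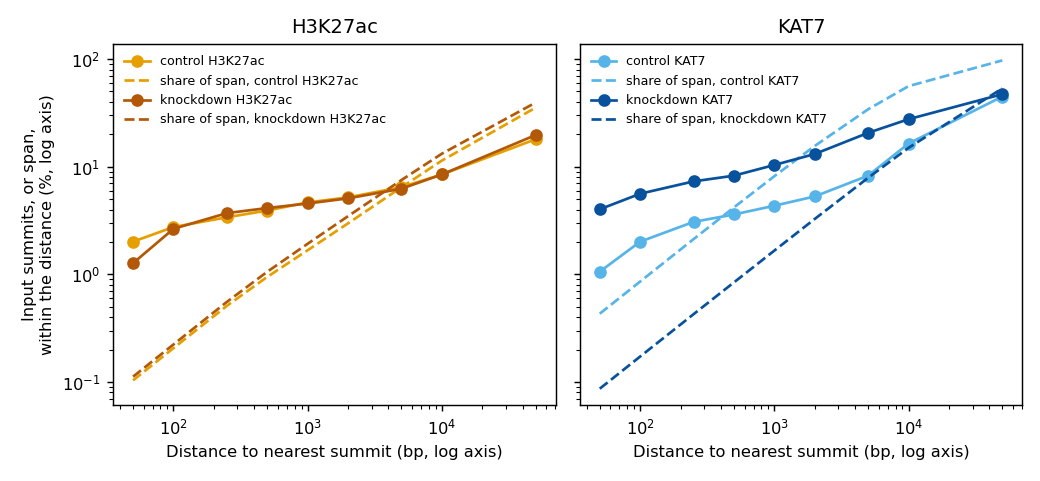
Share of the 945 input summits with a summit of each list within a distance (y axis, %, log axis; x axis, bp, log axis), as points joined by solid lines, with the share of the chromosomes' span within that distance of the same list as dashed lines. H3K27ac is on the left and KAT7 on the right. Solid lines lie above dashed lines at 50 bp (4.02% against 0.0865% for knockdown KAT7) and below them at 50 kb for all 4 lists.

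Place divided the input summits further. Near the stretch, 480 of 508 summits (94.5%) had no immunoprecipitated summit within 1000 bp. This is largely fixed by the definition for the 301 inside the stretch, of which 295 had none, so the 207 outside it were also counted by themselves, a choice made after seeing the data. Of these, 185 (89.4%, 84.4 to 93.2%) had none. Control H3K27ac was near 0 of the 207, with an exact upper limit of 1.77%, which is above the 1.67% of the span. Knockdown H3K27ac was near 1 (0.483%, 0.0122 to 2.66%) and control KAT7 near 3 (1.45%, 0.300 to 4.18%, against 8.16% of the span). Knockdown KAT7 was near 21 (10.1%, 6.39 to 15.1%), against 1.66% of the span.

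Counted once each, 19 knockdown KAT7 summits lay both near a stretch and within 1000 bp of an input summit. Their scores ran from 1.47 to 16.7 with a median of 3.31, and 1 of the 19 scored at least 10. The other 239 knockdown KAT7 summits near a stretch had a median score of 7.67 and a highest of 73.8, and 88 of them scored at least 10.

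The single knockdown H3K27ac neighbour near a stretch lay on chromosome 1, where the input summit at 121485167 scored 117. It was 61 bp from the edge of the stretch, and that edge was set by a knockdown KAT7 summit at 121485228 with a score of 1.60. The knockdown H3K27ac summit was 37 bp away with a score of 2.92, and ranked 29676 of 31839 in its list.

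Clusters showed the same order of the lists. Of the 433 input summits in clusters, knockdown KAT7 was within 1000 bp of 37 (8.55%, 6.09 to 11.6%) and control KAT7 of 4 (0.924%, 0.252 to 2.35%). Both H3K27ac lists were near 0 of the 433, with an exact upper limit of 0.848%. Outside clusters the shares were 11.9% of 512 for knockdown KAT7, 7.23% for control KAT7, 8.59% for control H3K27ac and 8.40% for knockdown H3K27ac. The low shares in clusters are partly fixed by the 17 clusters wholly inside a stretch. By cluster, 28 of 38 had no immunoprecipitated summit within 1000 bp of any member, 10 had knockdown KAT7 and 3 had control KAT7.

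Counted within the extents of the 38 clusters, the lists gave 35 knockdown KAT7 summits, 7 control KAT7 summits and 1 summit of each H3K27ac list. Per Mb this was 38.0 (exact Poisson interval 26.4 to 52.8) for knockdown KAT7, against 8.57 per Mb over the whole span. For control KAT7 it was 7.59 (3.05 to 15.6) per Mb against 42.6, and for control H3K27ac 1.08 (0.0275 to 6.04) against 10.2. These values are lowered by the clusters that reach into a stretch, where no immunoprecipitated summit can lie. In the 18 clusters that touched no stretch, 440.0 kb in all, knockdown KAT7 had 32 summits or 72.7 (49.7 to 102.7) per Mb, above the 8.57 of the span. Control KAT7 had 6 or 13.6 (5.00 to 29.7) per Mb, below the 42.6 of the span. Each H3K27ac list had 1 summit or 2.27 (0.0575 to 12.7) per Mb, an interval that reaches the 10.2 and 11.1 of the span.

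The clusters with knockdown KAT7 were few. Most came from 4 of them. On chromosome 4 from 49094068 to 49158514, a knockdown KAT7 neighbour was found for 9 of the 31 input summits, and the 8 knockdown KAT7 summits inside scored at most 4.98. On chromosome 16 from 33950258 to 33975439, 6 of 10 input summits had one, with scores of at most 8.80. On chromosome 2 from 92269513 to 92325516 it was 5 of 33, with scores of at most 4.46. In the cluster at 132997507 to 133039080 of chromosome 2, knockdown KAT7 was near 5 of 14 input summits and control KAT7 near 2, and a knockdown KAT7 summit inside reached 25.4. The cluster of 32 summits on chromosome 16 had no immunoprecipitated summit of any list.

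**Figure D4:**
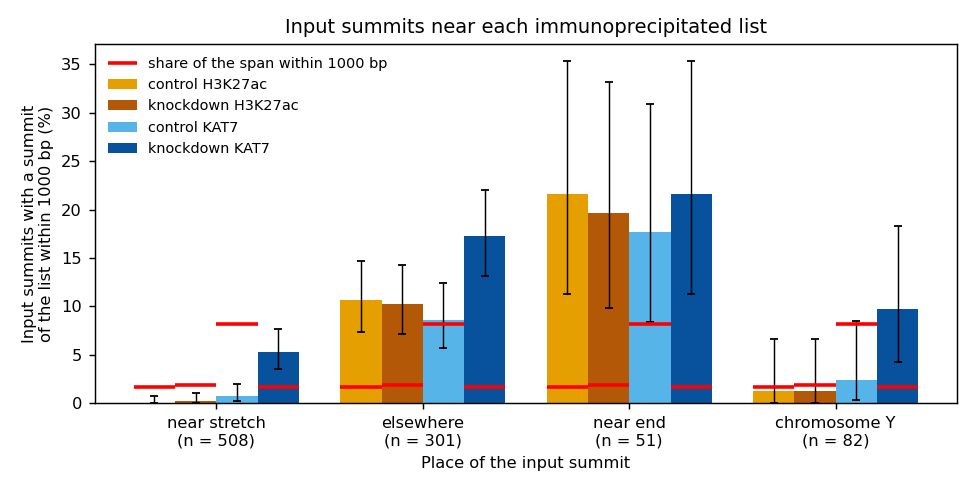
Share of input summits with a summit of each list within 1000 bp (y axis, %) by place of the input summit (x axis), with exact 95% binomial intervals as error bars and a red line at the share of the chromosomes' span within 1000 bp of that list. Near the stretch the knockdown KAT7 bar (5.31%) is above its red line (1.66%), and all bars there are lowered by the 301 summits inside the stretch, where no immunoprecipitated summit can lie. Near chromosome ends the 4 bars lie between 17.6% and 21.6%, above their red lines. An end is itself set by an immunoprecipitated summit, which can raise these bars.

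At chromosome ends input summits met the immunoprecipitated lists more often than near the stretch. Both places are defined by immunoprecipitated summits, present at an end and absent inside a stretch. Part of this contrast is therefore fixed by the definitions. An end was taken as the outermost immunoprecipitated summit of an arm, which can lie inward of the true chromosome end. The short arms of the acrocentric chromosomes were left out. Within 1 Mb of an end, or beyond it, lay 51 of the 860 input summits on chromosomes 1 to 22 and X (5.93%, 4.45 to 7.72%). The share was 3.45% for control H3K27ac, 3.25% for knockdown H3K27ac, 1.21% for control KAT7 and 2.52% for knockdown KAT7. An immunoprecipitated summit lay within 1000 bp of 14 of these 51 (27.5%, 15.9 to 41.7%), and all 4 lists did so at 8 (15.7%, 7.02 to 28.6%). Near the stretch no input summit had all 4 lists.

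Within 5 kb of such an end or beyond it, chromosome Y included, 43 ends could be looked at. The definition places a summit of some immunoprecipitated list at every end, so only the number of lists could vary. Input summits lay at 7 of them, 8 summits in all, and each of the 7 also had a summit of all 4 immunoprecipitated lists. All 4 lists were present at a further 11 ends without an input summit. The 7 ends were the start of chromosome 1 (10086), its far end (249240260), the far end of chromosome 4 (191044072), the start of chromosome 5 (11034 and 11530) and the far ends of chromosomes 12 (133841749), X (155260326) and Y (59363282). The far ends of X and Y share pseudoautosomal sequence, so reads from either can be placed at both. Human chromosome ends carry arrays of telomere repeats, and the lists show positions only, so the repeats themselves were not examined.

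The input scores at these ends were modest and the immunoprecipitated ones high in their lists. At the start of chromosome 1 the input summit scored 12.5, and the control H3K27ac, knockdown H3K27ac, control KAT7 and knockdown KAT7 summits scored 158, 227, 28.8 and 120, with ranks of 38, 25, 283 and 159 in their lists. At the start of chromosome 5 the H3K27ac summits ranked 46 in the control and 18 in the knockdown list. At the far end of chromosome 1 the ranks in H3K27ac were 82 and 44, and in KAT7 2968 and 278, control first. Over the 8 input summits, H3K27ac scores ran from 60.4 to 158 in the control and from 85.8 to 266 in the knockdown list. KAT7 scores ran from 11.5 to 32.9 in the control and from 50.5 to 120 in the knockdown list. Scores of different lists are not on a common scale, so they give no change between siRNAs.

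All 4 immunoprecipitated lists lay within 1000 bp of 20 input summits in 17 runs, 2.12% (1.297 to 3.25%) of the input list. Besides the 8 at chromosome ends there were 12, none of them in a cluster or near a stretch. The highest input score of the 20 was 34.8, on chromosome 8 at 82754707, with control and knockdown H3K27ac summits 1 and 4 bp away (scores 11.4 and 8.51) and KAT7 summits 129 and 23 bp away (4.39 and 24.5). On chromosome 22 at 25489802 the input score was 25.2, with H3K27ac scores of 44.0 and 60.7 and KAT7 scores of 7.94 and 87.0, control first.

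The site on chromosome 2 at 33141392 had an input score of 10.4 and the highest H3K27ac scores of the 20. These were 252 in the control list (rank 10 of 29429) and 361 in the knockdown list (rank 9 of 31839). Its control KAT7 score of 60.9 ranked 37, and its knockdown KAT7 score of 17.7 ranked 5085. Also on chromosome 2, the site at 2299379 had H3K27ac scores of 158 and 163 (ranks 37 and 49) and KAT7 scores of 14.4 and 87.0, beside an input score of 11.8. Runs of 2 summits lay on chromosome 17 at 64794847 and 64795486 (input scores 18.1 and 12.7) and chromosome 7 at 150607118 and 150607499 (7.11 and 13.6). The control KAT7 score nearest to each member was 1.31 on chromosome 17 and 2.99 on chromosome 7. On chromosome 20 at 62324920 the input score was 12.3 and the control KAT7 score again 1.31. Position 186748425 of chromosome 4, position 142723892 of chromosome 8 and position 100394345 of chromosome 14 made up the rest, with input scores of 10.1, 9.57 and 7.90.

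**Figure D5:**
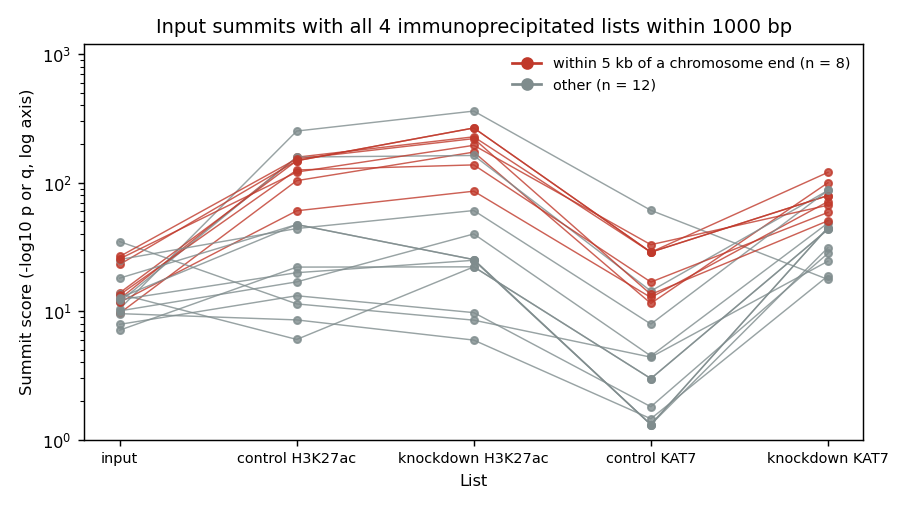
Scores (y axis, -log10 p or q, log axis) of the 20 input summits with all 4 immunoprecipitated lists within 1000 bp and of the nearest summit in each list (x axis), with 1 line per input summit, red within 5 kb of a chromosome end and grey elsewhere. Scores are not on a common scale between lists. Within the control KAT7 list the 8 end summits lie between 11.5 and 32.9, and 10 of the 12 others lie below them.

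Away from the stretch and the chromosome ends, input summits met the immunoprecipitated lists at shares between those of these places. The 301 summits elsewhere on chromosomes 1 to 22 and X had a control H3K27ac summit within 1000 bp in 10.6% (7.39 to 14.7%), a knockdown H3K27ac summit in 10.3%, a control KAT7 summit in 8.64% and a knockdown KAT7 summit in 17.3% (13.2 to 22.03%). Of these, the 132 within 5 Mb of the stretch had control KAT7 near 0, with an exact upper limit of 2.76%. Knockdown KAT7 was near 17 of the 132 (12.9%, 7.68 to 19.8%). The 169 beyond 5 Mb had H3K27ac in 17.2% (control) and 16.6% (knockdown) and KAT7 in 15.4% (control) and 20.7% (knockdown), and 33.1% (26.1 to 40.8%) had any list. That last share was no lower than the 27.5% (15.9 to 41.7%) near chromosome ends. All 4 lists were near 6.51% (3.29 to 11.3%) of the 169, against 15.7% (7.02 to 28.6%) near the ends. The control KAT7 share of the 169 (10.3 to 21.7%) was above the 8.16% of the span.

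The strongest input summits with a control KAT7 neighbour were of this kind. They lay on chromosome 11 at 85195159 (input score 67.2, control and knockdown KAT7 scores 3.87 and 16.7), chromosome 1 at 91852973 (62.2, KAT7 scores 1.31 and 1.47) and chromosome 8 at 70602407 (52.2, KAT7 scores 2.78 and 2.97). The nearest H3K27ac summit to any of these 3 lay 17351 bp away, in the control list, from the chromosome 1 position. For control H3K27ac the strongest were on chromosome 4 at 80273740 (45.9) and 80274550 (26.7), which shared a control H3K27ac summit of score 2.14, and on chromosome 14 at 50329398 (35.6) and 50053467 (29.0). The 2 on chromosome 14 also had knockdown H3K27ac summits, with scores of 11.6 and 24.1. After the chromosome Y summit and the 3 on chromosome 9 given above, the strongest input summit with a knockdown KAT7 neighbour was also on chromosome 9, at 44070734, with an input score of 138 and a knockdown KAT7 score of 4.09.

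The lists near an input summit combined unequally. Knockdown KAT7 alone was near 59 of the 125 input summits that had any neighbour, with knockdown KAT7 scores from 1.31 to 20.2 and a median of 3.66. Control KAT7 alone was near 6, both KAT7 lists without H3K27ac near 11, and both H3K27ac lists without KAT7 near 13. Input score divided these too. When the list was divided into 5 equal classes by score, in the lowest class (5.24 to 12.2) 8.99% (5.33 to 14.0%) had a control H3K27ac summit, and in the highest (43.5 to 230) 0.529% (0.0134 to 2.91%). For knockdown KAT7 both of these score classes gave the same share, 11.1% (7.01 to 16.5%).

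Seen from the immunoprecipitated side, the positions near input were few but included strong ones. Within 1000 bp of an input summit lay 43 control H3K27ac summits (0.146% of the list), 43 knockdown H3K27ac summits (0.135%), 44 control KAT7 summits (0.0359%) and 86 knockdown KAT7 summits (0.349%). Of the 43 control H3K27ac summits 14 (32.6%) were among the 1000 highest-scored of their list, a group that makes up 3.46% of it with ties. Of the 43 in the knockdown list 13 (30.2%) were, against 3.22%. For KAT7 it was 4 of 44 (9.09% against 0.818%) in the control and 8 of 86 (9.30% against 4.07%) in the knockdown list. The median score near input and in the rest of the list was 11.2 and 7.09 for control H3K27ac, 13.4 and 8.02 for knockdown H3K27ac, 3.96 and 2.68 for control KAT7, and 7.35 and 7.67 for knockdown KAT7.

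With summits scoring at least 10 in the immunoprecipitated lists, fewer input summits had a neighbour. Knockdown KAT7 was then within 1000 bp of 34 input summits (3.60%, span share 0.633%), knockdown H3K27ac of 29 (3.07%, 0.852%), control H3K27ac of 26 (2.75%, 0.604%) and control KAT7 of 11 (1.16%, 0.234%). Among these stronger summits the input list as a whole was near every list more often than the span is, control KAT7 included. No such excess was seen near the stretch. Of the 508 input summits there, 1 had a knockdown KAT7 neighbour (0.197%, 0.00498 to 1.09%), and 0 had one of any other list. Summits inside the stretch lower these shares by construction. For knockdown KAT7 the share was 17.6% near chromosome ends, 6.98% elsewhere and 3.66% on chromosome Y. Of the 11 input summits with such a control KAT7 neighbour 7 lay near a chromosome end and 1 on chromosome Y.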

How the data were processed

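The 5 lists cover H3K27ac and KAT7 in HCT116 cells after control or ENO1-IT1 siRNA, and input DNA, with 1 library each. Per the submitters' processing notes, Bowtie (alignment), MACS2 (peak calling) and the hg19 build were used. Not given in the sources used here are versions, options and the control used in calling, so whether this input served as that control is unknown. The deposited peak names carry a tag for duplicate removal. The score deposited by the authors with each summit is a -log10 p or q value, which grows with depth, and depth is unknown.

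Distances, runs and shares were computed in Python 3.11.15 (SciPy 1.17.1, pandas 2.3.3, numpy 2.4.6), and plots were drawn in matplotlib 3.10.9. The code was tested on simulated data. Positions are hg19 and count from 1. A summit was near another at up to 1000 bp. A chromosome end was the outermost immunoprecipitated summit of an arm, without the acrocentric short arms. Intervals are exact at 95%, Clopper-Pearson for shares and Poisson for counts per Mb. They reflect counting error alone and treat summits as independent. Summits close together depend on each other, so the intervals are likely too narrow. A count of 0 was given the upper limit of its exact interval. The span excluded stretches of at least 1 Mb without immunoprecipitated summits. Named were the 10 fullest clusters, the 10 highest-scored input summits, for each list the 5 highest-scored input summits near it, and up to 15 near all 4 lists. Other positions were chosen after their values were seen. The members and rules were chosen with earlier results of these data known. Sequences and genes were not analysed here, because no hg19 genome or annotation was used.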

Additional observations from a re-analysis of the deposited data

How the results depend on the processing

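With 1 library per group there was no replicate to leave out and no test whose call could change. No paired analysis was possible because no group had a replicate. Of 85 alternatives, 43 gave a value inside the 95% interval of the value reported and 42 did not; 11 of the alternatives, marked as later ones here, were chosen after seeing the data. The share in clusters was 33.7% and 65.6% with neighbours up to 5 and 50 kb apart, and 58.1% and 31.3% with at least 3 and 10 summits. The share near a stretch was 66.5% within 2 Mb, 74.4% within 5 Mb, 36.2% with 1 summit per run, 24.1% for summits outside the stretch only (later) and 63.1% around every stretch of at least 1 Mb (later). Near a chromosome end it was 3.49% within 500 kb, 8.26% within 2 Mb, 4.42% for input scores of at least 10 and 10.6% with 1 summit per run.

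For input summits within reach of control H3K27ac, knockdown H3K27ac, control KAT7, knockdown KAT7 and no list, in that order, the shares were 6.46%, 6.24%, 8.25%, 20.6% and 74.5% at 5000 bp, 2.75%, 3.07%, 1.16%, 3.60% and 95.1% for immunoprecipitated scores of at least 10, and 8.87%, 8.62%, 7.88%, 14.0% and 80.8% with 1 summit per run. Knockdown KAT7 gave 8.25% at 500 bp and 13.1% at 2000 bp, and no list 88.9% and 83.6%. The shares of the same 4 lists within reach of input were 0.221%, 0.188%, 0.0678% and 0.528% at 5000 bp. For scores of at least 10 those of control H3K27ac, knockdown H3K27ac and control KAT7 were 0.239%, 0.196% and 0.297%. Among input summits near a stretch, counting only those outside it (later) moved the share within reach of knockdown KAT7 from 5.31% to 10.1% and of no list from 94.5% to 89.4%. In the clusters that touch no stretch (later), knockdown KAT7 had 72.7 in place of 38.0 summits per Mb. With 1 summit per run fewer pericentromeric summits are counted, by construction. Knockdown KAT7 stayed the list nearest to input most often in each of these settings. For scores of at least 10 its lead was within counting error. There it had 3.60% (2.50 to 4.99%) and knockdown H3K27ac 3.07% (2.06 to 4.38%). Depth is unknown and limits what the lists can show.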
